A study of Mus musculus with 16 samples.

Results

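Gja1, Gja4 and Gja5 encode connexins 43, 37 and 40, the gap junction proteins for which heart muscle and vessel walls are best known. They were followed across 6 mouse cell groups on 16 expression arrays. The 3 genes were taken by symbol from the probe annotation of the array, with no measured value used, and they are 3 of 17710 genes that could be named there. Each was read by 1 probe, so no second probe checks its value. Levels of different probes cannot be compared with each other, and each gene is compared only with itself across groups.

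Connexins assemble into hemichannels, and those of neighbouring cells dock to form a gap junction, through which ions and small molecules pass from cell to cell. Connexin 43 is the main connexin of working heart muscle and is also made by fibroblasts, smooth muscle and many other cells. Connexin 40 is found in the atria, the fast conduction system and arterial endothelium, and connexin 37 mainly in endothelium.

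All samples came from C57BL/6 mice of normal genotype, with no treatment given in the labels, and the labels state neither age nor sex, nor whether animals were pooled. Heart tissue gave a c-kit-positive sort (heart c-kit cells, 3 arrays), a sort positive for Sca1 and negative for CD45 and CD31 (heart Sca1 cells, 3 arrays), and a side population gated on Hoechst dye efflux (2 arrays). Bone marrow gave a c-kit-positive sort (marrow c-kit cells, 3 arrays) and cultured mesenchymal stem cells at 5 passages (MSC, 3 arrays). Cardiomyocytes, pelleted by a slow spin, were on 2 arrays and served as the control. The labels of all samples name Matrigel and mTeSR as the culture condition and do not say which groups were cultured before RNA was taken. Separate animals or cultures are not stated for the replicates. The p-values therefore measure only array-to-array spread, which may be technical.

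Sequence upstream of the 3 genes is shown as a description, and its relation to their levels was not tested. Each line gives the 250 bases before the RefSeq start of the gene on its own strand (GRCm38.p6), 5′ to 3′, with capitals for matches to any of 8 short motifs searched on both strands. The windows are chr10:56377050-56377299 on the plus strand for Gja1, chr4:127314040-127314289 on the minus strand for Gja4 and chr3:97032152-97032401 on the plus strand for Gja5.
Gja1: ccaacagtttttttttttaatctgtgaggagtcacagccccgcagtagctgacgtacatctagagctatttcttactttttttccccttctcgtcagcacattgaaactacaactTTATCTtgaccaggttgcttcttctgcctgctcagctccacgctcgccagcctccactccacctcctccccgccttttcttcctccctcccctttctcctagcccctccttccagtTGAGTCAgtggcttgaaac
Gja4: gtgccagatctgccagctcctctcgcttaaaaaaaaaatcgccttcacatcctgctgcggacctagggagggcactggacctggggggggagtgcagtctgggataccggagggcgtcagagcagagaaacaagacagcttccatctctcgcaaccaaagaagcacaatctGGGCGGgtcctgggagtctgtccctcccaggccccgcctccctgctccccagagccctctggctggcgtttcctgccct
Gja5: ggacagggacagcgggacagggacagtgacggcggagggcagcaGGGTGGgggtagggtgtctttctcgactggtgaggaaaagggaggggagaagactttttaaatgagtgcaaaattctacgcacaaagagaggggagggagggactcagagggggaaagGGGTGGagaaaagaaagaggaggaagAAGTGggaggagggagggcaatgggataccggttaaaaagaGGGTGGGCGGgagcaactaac
The Gja1 window held an AP-1 site (TGAGTCA) that begins 19 bases before the start, a match found in 4.46% of 32851 upstream windows of that length, and a GATA site (AGATAA, 9.99% of windows) on the opposite strand. The Gja4 window held only a GC box (GGGCGG, 32.7% of windows). The Gja5 window held a GC box, an NK-2 site (AAGTG, 40.7% of windows) and 3 KLF sites (CCACCC, 28.1% of windows) on the opposite strand, the last of which overlaps the GC box. The T-box half-site AGGTGT (11.8% of windows), the SOX site AACAAT (9.42%) and the TATA box TATAAA (12.4%) had no match in the 3 windows. A match describes the letters only, and no binding was measured here.

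Before the connexins, markers of the labelled cell types were read on the scale used throughout, the log2 level after quantile normalisation. The 2 cardiomyocyte arrays had all 9 measured cardiomyocyte markers above the median probe, but also 16 of 17 endothelial markers. Their mean endothelial level, 6.05 and 6.39, was higher than on any other array (heart c-kit 4.57 to 4.89, heart Sca1 1.06 to 4.94, side population 1.03 to 1.06, marrow c-kit -0.06 to 0.03, MSC -1.30 to -0.98). Heart Sca1 replicate 3 had an endothelial level of 4.94 against 1.06 and 1.67 on the other arrays of that group, which was sorted to lack CD31. Its macrophage and leukocyte level also stood apart, at 2.61 against -0.86 and -1.14, although the sort excluded CD45. The arrays labelled MSC had all 10 measured macrophage and leukocyte markers above the median probe (mean level 6.09 to 6.43), and Ptprc, which encodes CD45, stood at 7.05 ± 0.43 there (SD, n = 3). The median spot intensity of an array ranged from 25 to 223 over probes with a usable signal. None of the 3 connexins was at the value used to fill unusable spots on any array. In such bulk samples, fewer cells of a type and less RNA per cell cannot be told apart.

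All 3 connexins differed among the 6 groups. The group means of Gja1 spanned 3.16 log2 units (limma moderated F test, adjusted p = 0.0012 over all genes), those of Gja4 5.21 units (adjusted p = 0.0142) and those of Gja5 6.53 units (adjusted p = 0.00859). The same test called 31.9% of all genes, so differing between these cell groups was common. Of the 15 pairs of groups, limma called 5 for Gja1, 4 for Gja4 and 4 for Gja5 at an adjusted p under 0.05. The 3 patterns were not alike. Gja1 had its lowest mean in marrow c-kit cells and Gja4 its lowest means in both marrow groups. Gja5 was highest in cardiomyocytes.

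**Figure D1:**
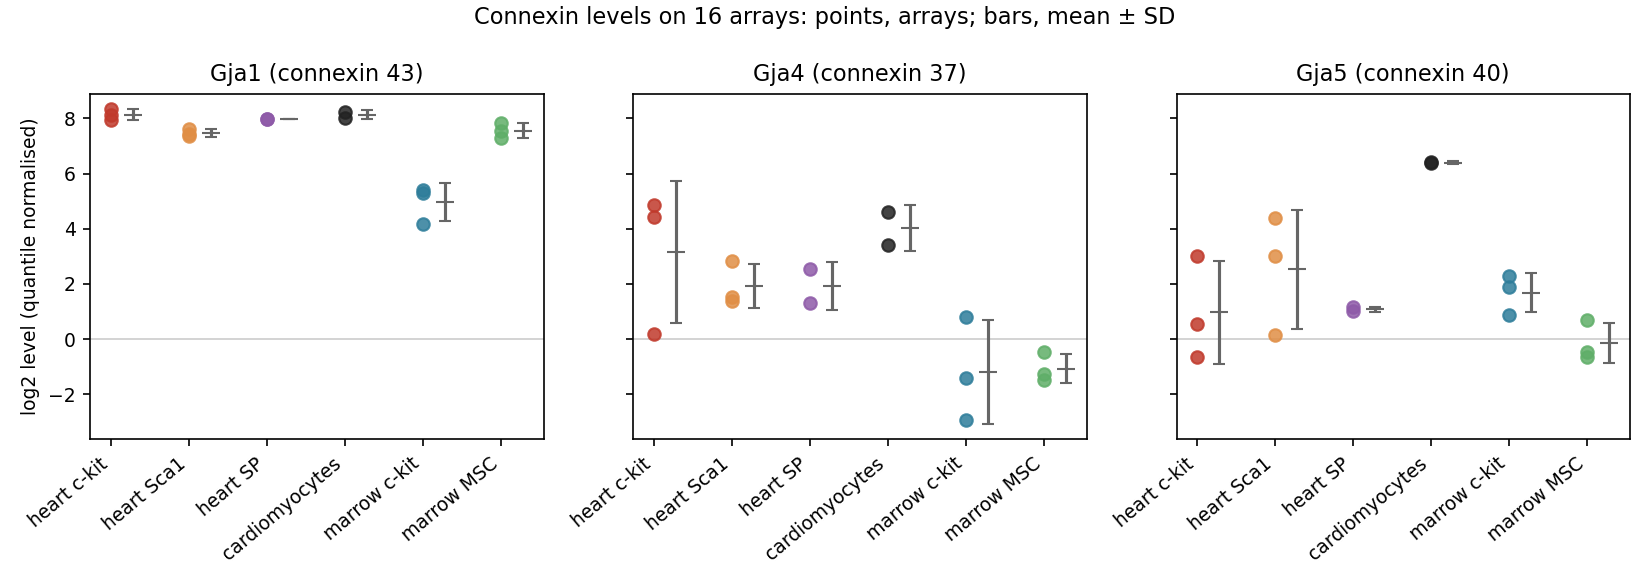
Log2 level of Gja1, Gja4 and Gja5 (vertical axis, quantile normalised) in the 6 cell groups (horizontal axis; SP is the side population); points are single arrays, bars the mean ± SD over 2 or 3 arrays. Gja1 has its lowest mean, 4.97, in marrow c-kit cells. Gja4 lies below 1 on every marrow array, and Gja5 stands at 6.37 and 6.43 on the cardiomyocyte arrays.

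Gja1 was lower in marrow c-kit cells than in every other group. Its level was 7.94, 8.33 and 8.12 on the heart c-kit arrays, 8.01 and 8.24 on the cardiomyocyte arrays, and 7.98 on each of the side population arrays. It was 7.82, 7.54 and 7.28 in MSC and 7.35, 7.61 and 7.43 in heart Sca1 cells. The marrow c-kit arrays read 5.30, 5.41 and 4.19, so the highest array of that group lay below the lowest of every other group. Spot intensities were 912 to 3211 in marrow c-kit cells against 5528 to 30881 elsewhere, all below the brightest spots of the arrays, at 65436 to 65471.

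The 5 called pairs of Gja1 were those of marrow c-kit cells with each other group. Heart c-kit cells, the cells sorted for the same receptor in the other organ, exceeded them by 3.16 ± 0.47 (SE; 8.95-fold; limma adjusted p = 0.000497; 10.8% of all genes called in that pair). The difference was 3.15 ± 0.53 for cardiomyocytes (adjusted p = 0.0012; 12.4% called), 3.01 ± 0.53 for side population cells (adjusted p = 0.000983; 21.2% called) and 2.5 ± 0.47 for heart Sca1 cells (adjusted p = 0.00188; 16.5% called). The difference of marrow c-kit cells from MSC was -2.58 ± 0.47 (limma adjusted p = 0.00248; 11% called). With array medians aligned only, or with the deposited values, the pair with cardiomyocytes was lost, at 2.30 (adjusted p = 0.315) and 2.34 (adjusted p = 0.188), and the other 4 were kept.

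Among the other groups, no pair passed for Gja1. In the order of the group means (heart c-kit cells 8.13, cardiomyocytes 8.12, side population cells 7.98, MSC 7.55, heart Sca1 cells 7.46), no neighbours differed beyond the test. Among those groups limma called 11.1% of genes for heart c-kit against heart Sca1, 11.8% for heart c-kit against side population and 6.83% for heart Sca1 against side population. The difference of heart c-kit cells from cardiomyocytes had a 95% interval of -1.13 to 1.15, and that of heart Sca1 cells from cardiomyocytes -1.80 to 0.48. The mean of the 3 cardiac progenitor groups was -0.26 ± 0.46 from cardiomyocytes (SE; interval -1.25 to 0.73; adjusted p = 0.872), in a comparison where limma called 0.678% of genes. These differences depended on the scaling: with medians aligned only the progenitor mean was 2.20 above cardiomyocytes (adjusted p = 0.216; median of all genes 0.79), and with the deposited values 1.48 above (adjusted p = 0.441). Gja1 ranked among the brightest spots of these arrays, at the 98.4th percentile or higher, where quantile normalisation sets levels by rank.

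Gja4, the endothelial connexin 37, was higher in heart c-kit cells and cardiomyocytes than in either marrow group. Cardiomyocyte arrays stood at 3.43 and 4.62, heart c-kit arrays at 0.20, 4.41 and 4.87, heart Sca1 arrays at 1.40, 1.53 and 2.83, and side population arrays at 1.30 and 2.55. In the marrow it was -1.48, -1.26 and -0.46 in MSC and 0.80, -2.93 and -1.42 in marrow c-kit cells. Only heart c-kit replicate 1 came within the range of the marrow arrays. Intensities were low in the marrow, 10 to 96, and 56 to 3049 in the heart groups. On the marrow c-kit arrays the probe ranked between the 23.8th and 57.9th percentile, not clear of the median probe, so the size of a difference from marrow is uncertain and no fold is given.

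The 4 called pairs of Gja4 set heart c-kit cells or cardiomyocytes against a marrow group. Cardiomyocytes exceeded marrow c-kit cells by 5.21 ± 1.28 (SE; limma adjusted p = 0.0149) and MSC by 5.09 ± 1.28 (adjusted p = 0.0256; 7.87% of all genes called in that pair). Heart c-kit cells exceeded marrow c-kit cells by 4.34 ± 1.14 (adjusted p = 0.024), although their arrays overlapped, and MSC by 4.23 ± 1.14 (adjusted p = 0.0278; 12.1% called). Heart Sca1 and side population cells lay 2.99 to 3.11 above each marrow group, but these 4 differences did not pass (limma adjusted p = 0.0862 to 0.127). Of all genes, 10.3% were called between heart Sca1 cells and MSC, and 17.7% between side population cells and MSC. In the order of the group means (cardiomyocytes 4.02, heart c-kit 3.16, heart Sca1 1.92, side population 1.92, MSC -1.07, marrow c-kit -1.18), no neighbours differed beyond the test.

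The count of 4 rested on few arrays. Without heart c-kit replicate 1, the array with the low value, 8 pairs were called, which were all pairs of a heart group with a marrow group. Without heart c-kit replicate 2 or 3, cardiomyocyte replicate 1 or 2, marrow c-kit replicate 2, or any of the MSC arrays, 2 pairs were called. Leaving out marrow c-kit replicate 2, for example, gave adjusted p-values of 0.123 for heart c-kit and 0.0642 for cardiomyocytes against marrow c-kit cells. The count was also 2 with medians aligned only and with the deposited values. With only the arrays compared in the fit, both heart c-kit calls were lost (adjusted p = 0.141 against marrow c-kit cells and 0.104 against MSC by limma), while heart Sca1 and side population cells against MSC passed (0.0117 and 0.0417). With array weights, heart Sca1 cells passed against marrow c-kit cells (adjusted p = 0.0175) and MSC (adjusted p = 0.0138). The mean of the cardiac progenitor groups did not differ from cardiomyocytes in Gja4 beyond the error (-1.69 ± 1.11, SE; interval -4.08 to 0.69; adjusted p = 0.605; 0.01 with medians aligned only).

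Gja4 ran with the markers of several cell types over the arrays. Over the 16 arrays, which share cell sources within a group, its Pearson correlation with the mean of the 17 endothelial markers was 0.81 (Spearman 0.81). It was 0.73 with the arterial endothelial markers (Spearman 0.72), 0.66 with the atrial and conduction markers (Spearman 0.69) and 0.63 with the cardiomyocyte markers (Spearman 0.76). Heart Sca1 replicate 3, with the high endothelial level of 4.94 and a macrophage and leukocyte level of 2.61, also had the highest Gja4 level of its group. Heart c-kit replicate 1 went the other way, with Gja4 at 0.20 and an endothelial level of 4.57, close to the 4.89 and 4.71 of the other heart c-kit arrays. The cardiomyocyte arrays were high in both, and the part of other cell types in these differences was not tested.

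Gja5, the atrial and arterial connexin 40, was highest in cardiomyocytes. Its level there was 6.43 and 6.37, above each of the other 14 arrays. Heart Sca1 arrays stood at 0.17, 4.38 and 3.03, marrow c-kit arrays at 2.28, 0.89 and 1.88, and side population arrays at 1.01 and 1.15. Heart c-kit arrays stood at 3.00, 0.54 and -0.63, and MSC arrays at -0.66, 0.71 and -0.46. The array nearest to cardiomyocytes was heart Sca1 replicate 2, and heart Sca1 and heart c-kit arrays varied widely within their groups. Spot intensity was 1850 and 8943 on the cardiomyocyte arrays and 22 to 2458 on the others. On the MSC arrays the probe ranked between the 44.4th and 57.2nd percentile, around the median probe. On heart c-kit arrays it ranked between the 44.7th and 76.5th percentile (intensity 22 to 435). On side population arrays it ranked between the 59.6th and 60.8th percentile (intensity 34 to 71). The size of a difference from such low arrays, in any of these groups, is uncertain.

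Cardiomyocytes were the labelled control, so each cardiac progenitor group was set against them. In Gja5 the mean of the 3 progenitor groups (8 arrays) lay 4.87 log2 units below cardiomyocytes (2 arrays, SE 0.99, limma adjusted p = 0.0431). In that comparison 0.678% of all genes were called. Heart c-kit cells lay 5.43 below cardiomyocytes (SE 1.14, limma adjusted p = 0.0172, 3.58% of all genes called in that pair). Side population cells lay 5.32 below them (SE 1.25, limma adjusted p = 0.0281, 5.17% called). For heart Sca1 cells the difference from cardiomyocytes was -3.87 ± 1.14 (SE; interval -6.33 to -1.42) with an adjusted p of 0.201. limma called 0 of 17710 genes in that pair, 0% of those tested, while 2067 had an unadjusted p under 0.05. Cardiomyocytes also exceeded MSC by 6.53 ± 1.14 (adjusted p = 0.00348) and marrow c-kit cells by 4.71 ± 1.14 (adjusted p = 0.0139). Among the 5 other groups no pair passed, with heart Sca1 cells against MSC the nearest (2.66 ± 1.02, adjusted p = 0.129). That pair did pass by limma with array weights (adjusted p = 0.0279) and without heart Sca1 replicate 1 (3.84, adjusted p = 0.0258).

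**Figure D2:**
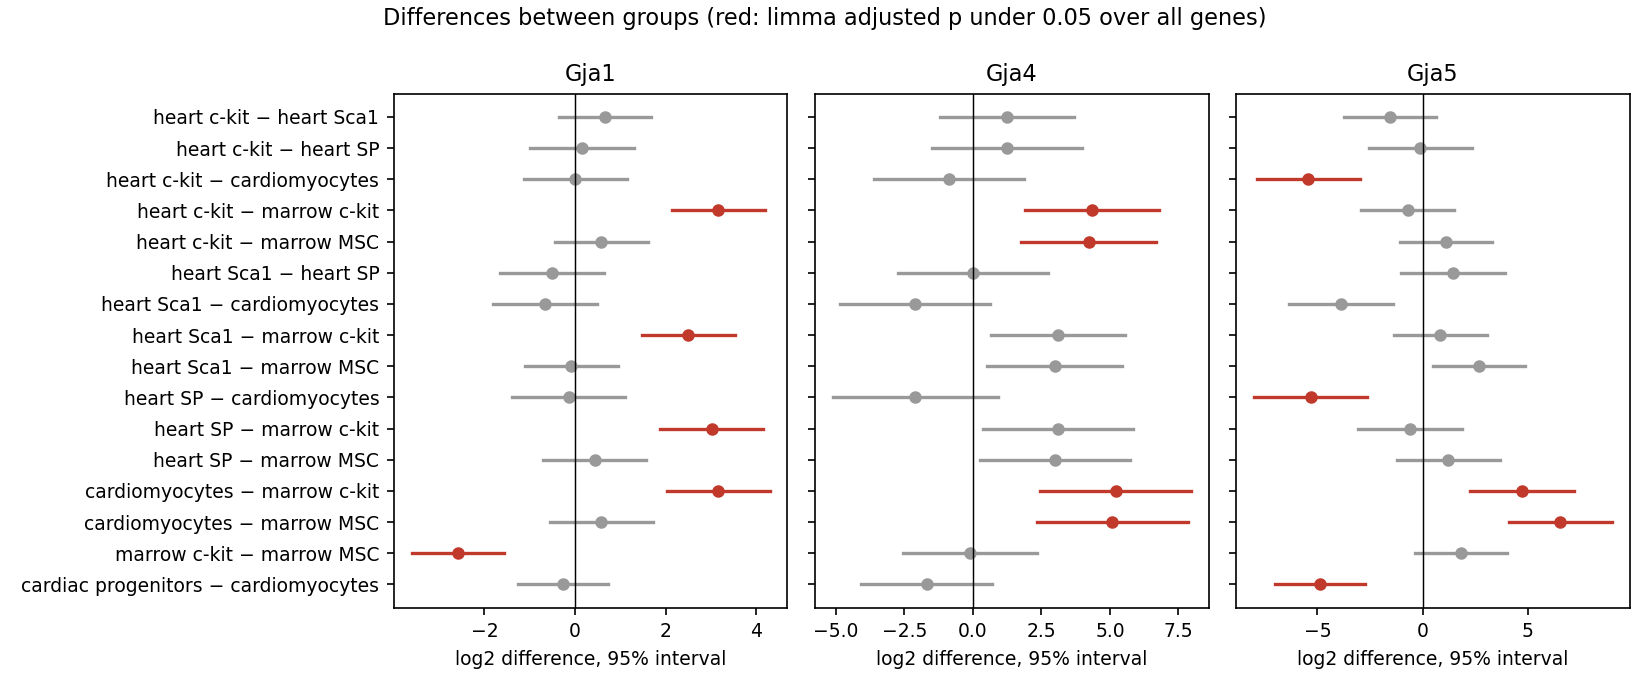
Log2 difference, first group less second, with 95% intervals (horizontal axis) for 15 pairs of groups and for the mean of the 3 cardiac progenitor groups minus cardiomyocytes (vertical axis); each panel has its own scale, and red marks a limma adjusted p under 0.05 over all genes. The red intervals are those of marrow c-kit cells for Gja1, of heart c-kit cells or cardiomyocytes against marrow for Gja4, and of cardiomyocytes for Gja5.

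The direction of the Gja5 difference was kept in every setting run, between -5.21 and -3.33, but the call was not. Dropping cardiomyocyte replicate 1 or 2 gave adjusted p-values of 0.357 and 0.193, dropping heart c-kit replicate 2 raised it to 0.055, and to between 0.0633 and 0.0698 when any single one of the 6 marrow arrays was dropped. It was 0.136 with medians aligned only (-3.33, where the median of all genes was 0.79), 0.175 with the deposited values (-4.05), 0.276 when only the arrays compared were fitted and 0.213 with array weights. The calls of heart c-kit and side population cells against cardiomyocytes were lost with array weights (adjusted p = 0.124 and 0.25), with only the arrays compared (0.197 and 0.176) and with medians aligned only (0.0837 and 0.0687). The side population call was also lost without side population replicate 1 (adjusted p = 0.0696) or 2 (adjusted p = 0.0582). Against marrow c-kit cells the adjusted p missed the threshold once medians alone were aligned (0.091), with the deposited values (0.0935) and without marrow c-kit replicate 2 (0.0552). Without cardiomyocyte replicate 1 or 2 only 1 pair of Gja5 was called (that with MSC, which was called in every setting run), and the F test over the 6 groups gave adjusted p-values of 0.0571 and 0.0518. The lone cardiomyocyte array is assumed in these fits to vary like the other groups.

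**Figure D3:**
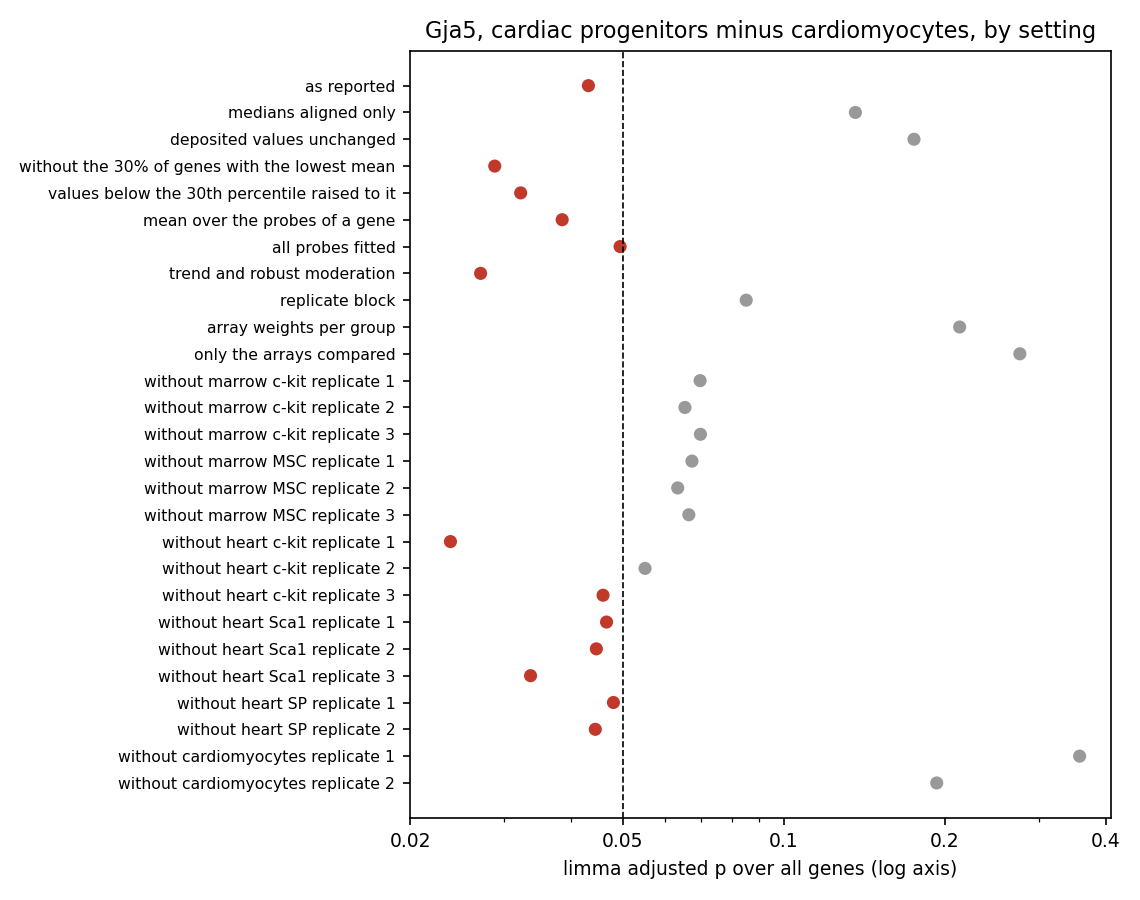
Adjusted p of Gja5 (horizontal log axis) for the mean of the cardiac progenitor groups minus cardiomyocytes under each setting (vertical axis), with red for values under 0.05 (dashed line). Leaving out either cardiomyocyte array gives 0.357 or 0.193, far to the right of the 0.0431 reported.

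The cardiomyocyte arrays that carried most Gja5 were also highest in several marker lists. Besides the endothelial level, the mean of 10 arterial endothelial markers was 5.38 and 5.43 there against at most 4.24 elsewhere, and the mean of 8 atrial and conduction markers was 2.17 and 2.24 there against at most 0.29 elsewhere. The cardiomyocyte marker mean was 6.15 and 6.32 against at most 3.50, and the smooth muscle and pericyte mean 4.17 and 4.39 against at most 3.33. Macrophage and leukocyte markers, at 3.07 and 4.02, had 9 and 10 of 10 above the median probe there. Over the 16 arrays Gja5 correlated with the cardiomyocyte markers at 0.84 (Pearson, Spearman 0.63), the atrial markers at 0.79 (Spearman 0.55) and the endothelial markers at 0.61 (Spearman 0.54). It correlated with the smooth muscle and pericyte markers at 0.52 (Spearman 0.40) and the arterial endothelial markers at 0.47 (Spearman 0.54). With that arterial list Gja4 stood higher, at 0.73 (Spearman 0.72), and so did Gja1, at 0.87 (Spearman 0.66). Gja1 was not tied to that list alone. Its correlation was 0.70 with the fibroblast markers (Spearman 0.34), 0.67 with the smooth muscle and pericyte markers (Spearman 0.41) and 0.60 with the atrial markers (Spearman 0.65). Heart c-kit cells had endothelial levels of 4.57 to 4.89 with Gja5 at 3.00 or lower, and heart Sca1 replicate 2 had Gja5 at 4.38 with an endothelial level of 1.67 and a cardiomyocyte level of 3.50. The part of each cell type in the Gja5 difference was not tested.

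**Figure D4:**
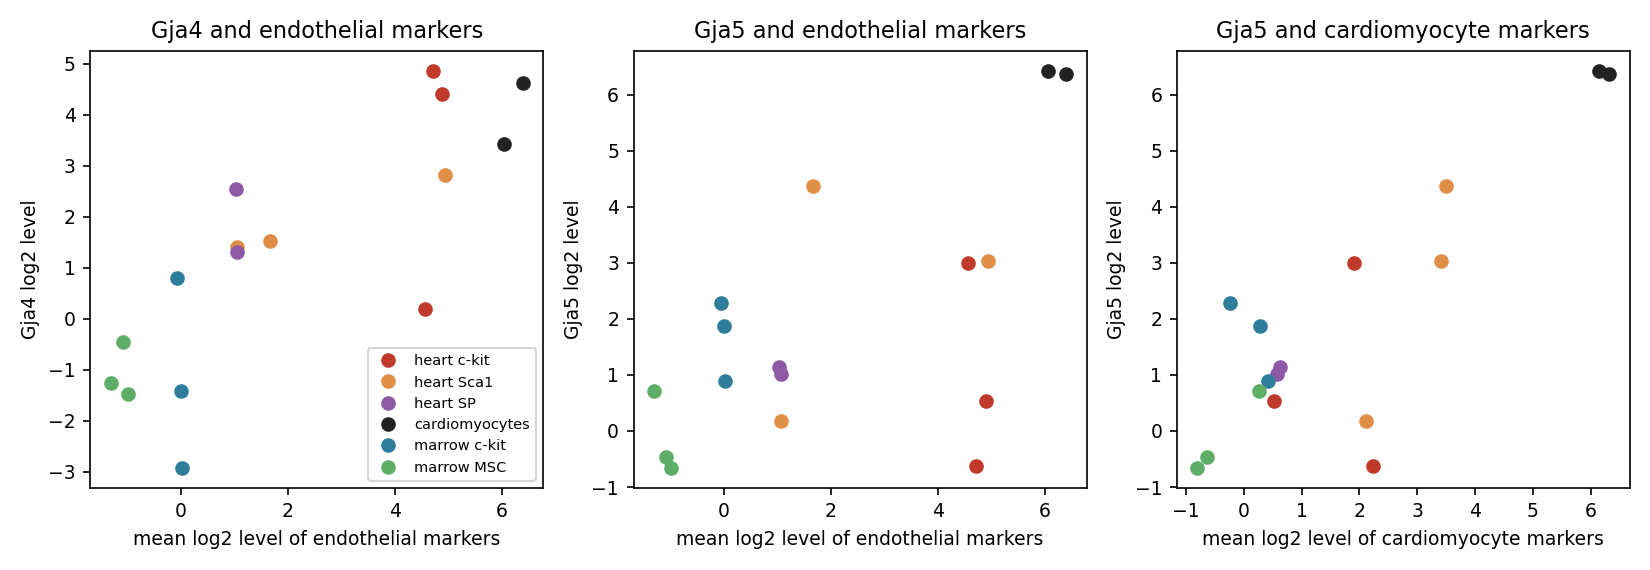
Each point is an array, coloured by cell group; the vertical axes give the log2 level of Gja4 or Gja5 and the horizontal axes the mean log2 level of 17 endothelial or 9 cardiomyocyte markers. Gja4 at 0.20 on heart c-kit replicate 1 lies below the other arrays of high endothelial level, and the cardiomyocyte arrays stand apart at the top right for Gja5.

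The members resembled each other only in part. Over the 16 arrays the Pearson correlation was 0.61 between Gja1 and Gja4 (Spearman 0.73), 0.37 between Gja4 and Gja5 (Spearman 0.30) and 0.10 between Gja1 and Gja5 (Spearman 0.08). These are descriptions over arrays that share cell sources, and carry no test.

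Of the wider family, 16 of 20 other connexin and pannexin genes were measured, and 2 of them, Gjc1 and Panx1, passed the F test over the 6 groups, 31.9% of all genes doing so. Gjc1, the connexin 45 gene of nodal tissue and smooth muscle, was, like Gja1, lowest in marrow c-kit cells. It was 5.73 ± 0.54 in side population cells (SD, n = 2), 5.67 ± 0.19 in cardiomyocytes (n = 2), 5.19 ± 0.27 in heart c-kit cells (n = 3), 3.88 ± 0.22 in heart Sca1 cells (n = 3) and 3.15 ± 0.33 in MSC (n = 3), but -5.02 ± 1.68 in marrow c-kit cells (n = 3), where 2 of 3 arrays were at the fill value. The size of its 10.21 ± 0.69 difference between heart and marrow c-kit cells (SE; limma adjusted p = 7.36e-07) is therefore uncertain. Side population cells exceeded MSC in Gjc1 by 2.59 ± 0.77 (adjusted p = 0.0333), a pair in which Gja1 did not pass (0.43 ± 0.53). The symbol Gjc1 was once also given to Gjd3, which has its own probe here.

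Panx1, a channel protein related to connexins in form that serves ATP release, had its extremes in the groups where Gja5 had the opposite ones. It was lowest in cardiomyocytes, at 2.20 ± 0.65 (SD, n = 2), and highest in MSC, at 5.84 ± 0.27 (n = 3). The difference of cardiomyocytes from MSC was -3.64 ± 0.76 (SE; limma adjusted p = 0.00957), and side population cells exceeded cardiomyocytes by 3.12 ± 0.83 (adjusted p = 0.0461). Panx2 and Gja10 did not pass the F test (adjusted p = 0.102 and 0.16). Gje1, whose symbol was once used for Gjc3, was called in 1 pair, side population cells against MSC (-4.74 ± 1.52, adjusted p = 0.0459), with side population arrays at -2.46 and 5.29. For 10 of the 16 genes every group mean was below 0, from -5.76 to -0.01.

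**Figure D5:**
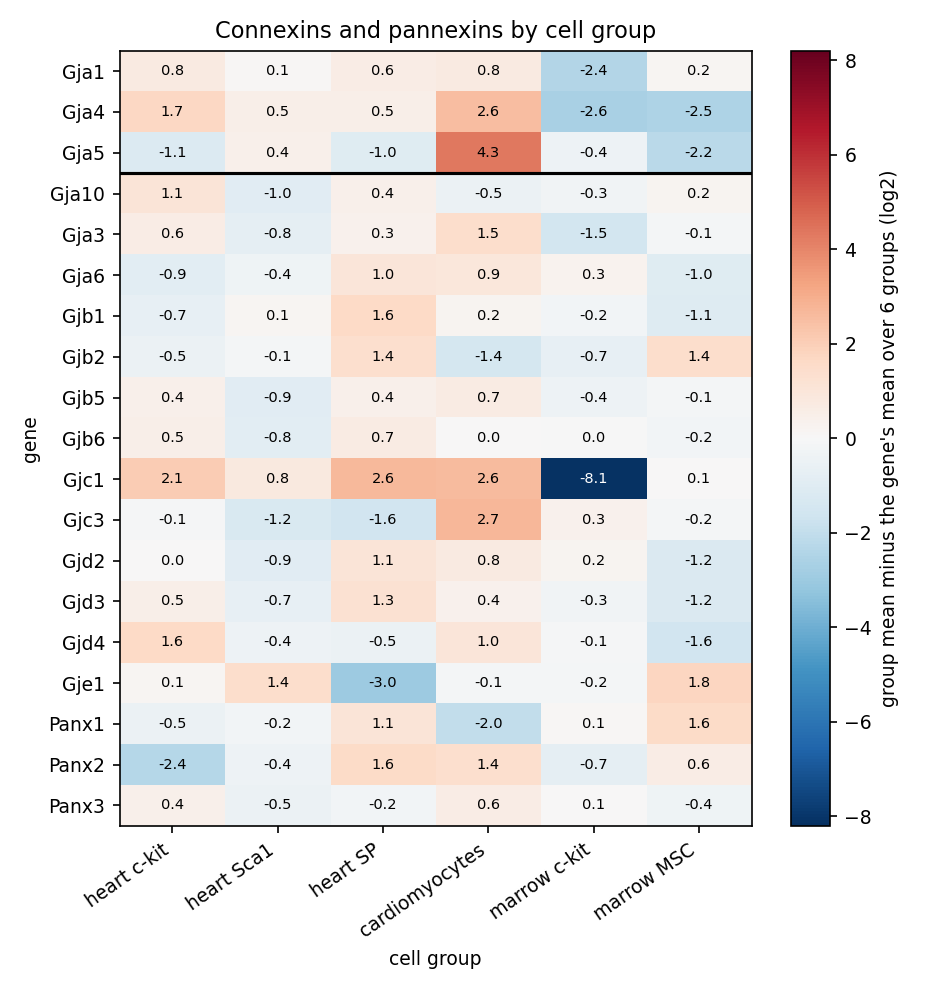
Group mean minus the mean over the 6 groups (colour and printed value, log2) for each of 19 connexin and pannexin genes (vertical axis) in the 6 cell groups (horizontal axis); the line sets the 3 members apart, and values are comparable along a row only. The deepest entry is Gjc1 in marrow c-kit cells, at -8.12 from its own mean, and the highest is Gja5 in cardiomyocytes, 4.31 above.

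Proteins that bind, anchor or remove connexins were measured for 14 of 16 listed genes, and 5 passed the F test, beside 31.9% of all genes. Tjp1, which encodes the scaffold ZO-1 that binds the tail of connexin 43, was 5.23 to 6.64 in the mean of the 4 heart groups, 2.23 ± 0.20 in MSC (SD, n = 3) and 0.51 ± 0.12 in marrow c-kit cells (n = 3). It was called in 9 of 15 pairs, 8 of them heart against marrow, for example heart c-kit against marrow c-kit cells at 5.69 ± 0.43 (SE; limma adjusted p = 1.55e-06). Cav1, caveolin of the plasma membrane, was -2.48 ± 0.38 in marrow c-kit cells and 3.47 to 7.28 elsewhere in the mean. Dbn1, the actin binder drebrin, was -5.13 ± 0.27 in heart c-kit cells, with 2 of 3 arrays at the fill value. It was similarly low for marrow c-kit (-5.22 ± 0.69, 1 array at the fill value) and cardiomyocytes (-4.5 ± 1.96). Heart c-kit cells did not differ from either beyond the test (limma adjusted p = 0.973 and 0.84). Dbn1 was higher for the side population (2.05 ± 1.77), MSC (0.82 ± 1.06) and heart Sca1 (0.61 ± 1.44). Ezr, the membrane linker ezrin, was -4.85 ± 1.62 in heart c-kit cells, with 1 array at the fill value, and 0.83 ± 0.27 in heart Sca1 cells, a difference of -5.68 ± 1.26 (adjusted p = 0.0103). Between heart and marrow c-kit cells 2 of the 14 genes were higher and 1 lower in the heart (10.8% of all genes called, median 0.08, against 0.11 over all genes).

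Of 14 genes of the intercalated disc, the junction where connexin 43 gathers in heart muscle, 12 were measured and 5 passed the F test, beside 31.9% of all genes. Jup, plakoglobin, was 6.84 ± 0.43 in cardiomyocytes (SD, n = 2), 4.90 to 5.29 in the mean of the 3 progenitor groups of the heart, 1.66 ± 0.47 in MSC (n = 3) and -0.37 ± 1.02 in marrow c-kit cells (n = 3). All 8 of its pairs of a heart group with a marrow group were called. Ctnna1, alpha catenin, was 3.47 ± 0.74 in marrow c-kit cells and 5.10 to 6.86 elsewhere in the mean. Cdh2, N-cadherin, was at the fill value on all 3 marrow c-kit arrays and highest in MSC (4.08 ± 0.30), and Xirp1, an actin-binding repeat protein of the disc, was highest in side population cells (4.63 ± 0.24). Against cardiomyocytes none of the 12 genes was called in the mean of the cardiac progenitors (median -0.97, against 0.02 over all genes), in a limma comparison that called 120 genes.

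Among transcription factors known to act on connexin genes, 13 of 16 were measured and 6 passed the F test, beside 31.9% of all genes. Gata6 was 3.55 to 4.53 in the mean of the 4 heart groups and -0.98 ± 0.79 and -1.40 ± 0.88 in marrow c-kit cells and MSC (SD, n = 3 each), and all 8 of its heart against marrow pairs were called. Sox17, an arterial endothelial factor, was 6.28 ± 0.05 in cardiomyocytes, 5.06 ± 0.71 for heart c-kit, 1.72 ± 2.87 for heart Sca1, -1.25 ± 0.77 for the side population, -4.33 ± 3.26 in MSC and -4.37 ± 1.49 for marrow c-kit. Id2, a repressor of helix-loop-helix factors that is needed for the conduction system, was 2.53 ± 0.48 in marrow c-kit cells and 5.31 to 7.95 elsewhere in the mean. Klf4, a flow-responsive factor of vessels, was 7.72 ± 0.51 in cardiomyocytes and 4.44 ± 0.23 in heart c-kit cells, a difference of -3.28 ± 0.78 for the latter (SE; limma adjusted p = 0.0325). Against marrow c-kit cells, 7 of the 13 factors were higher in cardiomyocytes and none was lower (12.4% of all genes called, median 4.44 against -0.14 over all genes). The other heart groups went the same way, with none lower. There 7 factors were higher in heart Sca1 cells (16.5% of all genes called), 5 in heart c-kit cells (10.8%) and 4 in side population cells (21.2%). With the other scalings none of the called differences of the genes named from these lists turned sign, but some calls were lost. With medians aligned only and with the deposited values, Tjp1 kept 7 of 9 called pairs in each, Klf4 7 and 8 of 10, Id2 5 and 4 of 7, and Ctnna1 2 and 3 of 4.

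Genes with the most similar pattern were sought by Pearson correlation over the 16 arrays among genes with a usable signal on at least 12. Genes picked in this way tend to share the highest and lowest groups of a member because of how they were picked. For Gja1 they were Tm4sf1 (0.98), Cttnbp2nl (0.97), Hes1 (0.97), St3gal5 (0.96) and Klf6 (0.96), all lowest in marrow c-kit cells. Tm4sf1, a tetraspanin-like surface protein, was -4.66 ± 1.23 there (SD, n = 3) and 3.59 to 6.36 elsewhere in the mean. For Gja4 they were Cdh13 (0.90), which encodes T-cadherin, Car8 (0.90), 9930111J21Rik1 (0.86), Sox7 (0.86) and Stau1 (0.86). Sox7, an endothelial factor, was 5.48 ± 0.25 in cardiomyocytes (n = 2) and -4.24 ± 0.51 in marrow c-kit cells (n = 3). For Gja5 they were Gkn3 (0.92), Tppp (0.88), Timp4 (0.88), Gpr21 (0.87) and Dock6 (0.86), all highest in cardiomyocytes and lowest in MSC. Gkn3, which was also among the arterial markers, was 3.09 ± 0.07 in cardiomyocytes (n = 2) and at most 0.35 elsewhere in the mean. By Spearman correlation 1 of the 5 genes of Gja1, 4 of Gja4 and 2 of Gja5 stayed among the top 5, and over the 6 group means 2, 0 and 1.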

How the data were processed

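The authors deposited, for each array, Cy5 intensity on a centred log2 scale, as judged from the values: undoing log and centring made 100% of spots below 200 whole (tolerance 0.005). Per the labels, WT-Ovation Pico served for amplification of the RNA and Cy5 for the dye; the other channel was not used. Background correction and the rule behind the repeated fill value (3.38% to 13.8% of probes per array) were not given in these sources.

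Array medians spread over 1.45 log2 units, more than the 0.5 allowed, so all 26423 probes were quantile normalised, which sets levels by rank within an array. Probes were named through an annotation table (20377 with a symbol; 18213 matched a current symbol and 2126 a synonym of the RefSeq GRCm38 table). Of 17710 genes, 2273 had several probes, read through their probe of highest mean. One model of 6 group means was fitted to 16 arrays over all genes with limma 3.58.1 in R 4.3.3 (lmFit, eBayes), with Benjamini-Hochberg adjustment across every gene in a comparison and a threshold of 0.05. The procedure was checked on simulated arrays that gave a gene the same spread in every group. That check does not cover groups of unequal spread. The number of arrays limits the precision.

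The members, gene lists, motifs and tests were chosen with earlier results of these data known. Named genes are the 3 members, the 4 genes of each list with the lowest p of the F test, and the 5 genes most correlated with each member. The rule also named the defining markers Pecam1, Cdh5, Tnnt2, Acta2, Col1a1, Ptprc and Kit, of which only Ptprc is described. Genes described outside this rule (Gje1) were chosen after their values were seen. The alternatives were 2 other scalings, 2 treatments of low values, 2 of probes, other moderation, a replicate block, array weights, a fit of only the groups compared, and leaving out each array.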

Additional observations from a re-analysis of the deposited data

How the results depend on the processing

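With medians aligned only, the median of all genes for progenitors minus cardiomyocytes moved from 0.02 to 0.79. The progenitor difference then became 2.2 for Gja1, 0.01 for Gja4 and -3.33 for Gja5 (adjusted p = 0.136), and 2 pairs of Gja4 and 1 of Gja5 were called. Uncalled pairs changed sign: heart c-kit minus side population (-1.54), heart Sca1 minus cardiomyocytes (0.95), side population minus cardiomyocytes (3.6) and cardiomyocytes minus MSC (-1.23) for Gja1, heart c-kit minus cardiomyocytes for Gja4 (1.24) and side population minus marrow c-kit for Gja5 (0.06). The deposited values gave progenitor differences of 1.48 for Gja1 and -4.05 for Gja5, 2 called pairs of Gja4, and -0.99, 0.74, 2.34 and -1.06 for those Gja1 pairs in that order. They gave 0.54 for Gja4 in heart c-kit minus cardiomyocytes and 0.55 in heart Sca1 minus side population. Raising low values turned Gja4 in marrow c-kit minus MSC to 0.32. The progenitor difference of Gja5 was -4.87 with array weights (adjusted p = 0.213) and with only the arrays compared (adjusted p = 0.276), where 2 of its pairs were called. The causes were not tested.

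Replicate numbers did not pair the arrays: correlations of deviations ranged from -0.18 to 0.40 (median 0.01) for same-numbered arrays. With the replicate block the Gja5 progenitor difference was -4.77 (adjusted p = 0.085) and heart c-kit minus side population 0.05, and the numbers of called pairs of the 3 genes were 5, 4 and 4, as without it.

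Leaving out single arrays gave 2 to 8 called pairs for Gja4 and 1 to 5 for Gja5, a span of Gja5 over the groups of 6.27 to 6.96, and a Gja5 progenitor difference of -5.21 to -4.48. Signs changed in uncalled pairs. For Gja1 these were heart c-kit minus cardiomyocytes (-0.11 to 0.12) and heart Sca1 minus MSC (-0.22 to 0.05). For Gja4 they were heart c-kit minus cardiomyocytes (-1.72 to 0.62), heart Sca1 minus side population (-0.63 to 0.62) and marrow c-kit minus MSC (-1.11 to 0.76). For Gja5 they were heart c-kit minus side population (-1.12 to 0.69), heart c-kit minus marrow c-kit (-1.73 to 0.09) and heart Sca1 minus marrow c-kit (-0.08 to 2.02). Of 1170 values of single pairs over all settings, 1088 kept direction and side of the threshold, 42 lost a call, 12 gained one and 28 changed sign. Only 5, 4 and 4 of the 15 pairs were called for Gja1, Gja4 and Gja5. The 1088 are thus mostly uncalled pairs and say little about how well the calls held. Only 2 arrays each of cardiomyocytes and side population cells limit the precision of their means.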
